A study of Mus musculus with 6 samples.

Results

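Cholesterol synthesis and its control by SREBP2 were followed through 7 genes in livers of WT mice and of mice with the TRIM24 C52/55A knockin. The genes were Srebf2, Hmgcs1, Idi1, Fdps, Sqle, Cyp51 and Insig1, chosen by name from the 21528 genes listed in any library, and all 7 had a value in every library. RNA-Seq was performed on 6 livers, 3 from WT and 3 from TRIM24 C52/55A mice, all labelled C57BL/6, 5 months old and given a 60% fat diet (high-fat diet, HFD) for 3 months. The knockin mice were homozygous for a germline, CRISPR-made change (on the C57Bl/6J background) of the RING cysteines Cys52 and Cys55 of TRIM24 to alanine, made to inhibit its E3-ligase activity, and carried it in all tissues, and the WT mice were littermates from matings of heterozygotes. The TRIM24 C52/55A mice are called knockin below. There was no group on another diet, so each difference below is between genotypes on the HFD.

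Sterol regulatory element-binding protein 2 (SREBP2, encoded by Srebf2) is the main transcription factor for cholesterol synthesis. It is made as a membrane protein of the endoplasmic reticulum and is escorted to the Golgi by SCAP when sterols are low, where it is cut and its active part goes to the nucleus. INSIG proteins hold SCAP and SREBP2 in the endoplasmic reticulum when sterols are plentiful, and SREBP2 itself raises the genes of the synthesis enzymes, of INSIG1 and of SREBP2.

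None of the 7 genes passed an adjusted p-value of 0.05 between genotypes, beside 6.09% lower and 1.64% higher of all genes tested. Expression of the 7 genes varied widely between mice of the same genotype. Hmgcs1, the enzyme that makes HMG-CoA, was the only one whose libraries did not overlap between genotypes, with 133.5 ± 37.4 FPKM in WT and 86.4 ± 15.5 FPKM in knockin livers (SD, n = 3 each). Of all genes tested, 22.5% lay lower in knockin livers without overlap. FPKM are fragment counts scaled to transcript length and to library depth, so levels can be set side by side between genes. All 5 pathway enzymes lay above their mean over the libraries in WT replicate 1 and below it in knockin replicate 2.

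The promoters of 5 of the 7 genes were found in the RefSeq table (GRCm38.p6; 250 bases before to 50 bases after the start), and Sqle and Fdps were not. They were searched on both strands for the letters TCACNCCAC (a sterol regulatory element, to which SREBPs bind), CCAAT (NF-Y) and GGGCGG (Sp1); NF-Y and Sp1 are the usual partners of SREBPs at sterol genes. The sterol regulatory element letters were in 1 of the 5 promoters, that of Hmgcs1, against 1.24% of 32851 promoters. CCAAT was in 5 of 5, against 37.4% of all promoters, and GGGCGG was in 5 of 5, against 35.7%. Of the promoters of genes tested here, 60.6% held GGGCGG. Shown are 150 bases for the 4 genes where a window of that length lies before both the RefSeq and the GENCODE start, to show the letters found at Hmgcs1 and at 3 other genes of the set; capitals mark matches to the 3 motifs on either strand. The Hmgcs1 window ends at the RefSeq start, while those of Insig1 and Cyp51 end 49 bases and that of Srebf2 88 bases before it, so the 4 windows do not cover the same positions and some matches counted above lie outside them.
Hmgcs1 (GRCm38.p6, chr13:119690201-119690350, + strand): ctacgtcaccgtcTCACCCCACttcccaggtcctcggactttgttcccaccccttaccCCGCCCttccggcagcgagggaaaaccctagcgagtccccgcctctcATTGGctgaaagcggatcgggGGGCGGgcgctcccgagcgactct
Srebf2 (GRCm38.p6, chr15:82147031-82147180, + strand): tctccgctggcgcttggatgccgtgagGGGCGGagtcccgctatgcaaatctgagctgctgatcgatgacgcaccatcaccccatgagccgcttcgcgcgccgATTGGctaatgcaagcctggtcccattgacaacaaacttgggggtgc
Insig1 (GRCm38.p6, chr5:28071213-28071362, + strand): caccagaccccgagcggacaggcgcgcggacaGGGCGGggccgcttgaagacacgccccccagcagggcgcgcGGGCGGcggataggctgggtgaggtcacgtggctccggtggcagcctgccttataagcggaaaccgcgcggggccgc
Cyp51 (GRCm38.p6, chr5:4104747-4104896, - strand): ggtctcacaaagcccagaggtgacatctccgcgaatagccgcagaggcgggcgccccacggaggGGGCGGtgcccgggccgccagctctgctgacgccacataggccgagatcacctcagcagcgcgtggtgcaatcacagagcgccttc
The element of Hmgcs1 begins 137 bases before the RefSeq start. A match is a stretch of letters and not a measured binding site, and its absence elsewhere says only that these letters are not in the window.

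Across all 6 libraries, 12225 genes averaged 0.5 FPKM or more and were tested as log2(FPKM + 1) with limma, with Benjamini-Hochberg adjustment over all of them. Of these, 6.09% were lower and 1.64% higher in knockin livers at an adjusted p-value under 0.05 (744 and 200 genes; 410 and 249 with median-of-ratios scaling, 378 and 255 with quantile scaling), and 19.0% were lower and 4.63% higher at an unadjusted p under 0.05. The 3 knockin values lay below all 3 WT values in 22.5% of genes. FPKM summed to 644619 to 648221 in WT and 673244 to 676791 in knockin libraries, and the median log2 difference of all genes tested was -0.08. FPKM keep no total count, but the steps between low values placed the depths within 0.962 to 1.03 of that of WT replicate 1. Adipoq, Plin1 and Lep, which mark adipocytes, were detected in knockin replicate 2 (4.55, 3.32 and 3.98 FPKM), while no other library exceeded 0.127 FPKM for any of them. Of the 7 adipocyte genes tested, 5 were highest in that library, including Fabp4 (45.5 FPKM, against 6.55 to 16.9 FPKM elsewhere) and Lpl (9.62 FPKM, against 1.47 to 3.57 FPKM). The other 2 were highest in WT: Cfd was at 2.54 FPKM in that library against 3.10 to 8.62 FPKM in WT, and Cidec, which fell in knockin livers (adjusted p = 0.0286), was at 6.12 FPKM against 9.94 to 25.2 FPKM. Both were nonetheless higher there than in the other knockin libraries, where Cfd was at 0.112 and 0.821 FPKM and Cidec at 0.663 and 2.12 FPKM. Hepatocyte markers were high in every library (summed level of the list 18910 to 19300 FPKM in WT and 18200 to 20640 FPKM in knockin livers). Alb and Tf are on that list but had no entry in any library used here, so the sums leave them out. Trim24 itself stood at 4.85 to 5.96 FPKM in WT and 4.31 to 8.46 FPKM in knockin livers, which cannot check a change of single codons.

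Srebf2 was the least abundant of the 7 genes. Its level was 14.6, 10.8 and 12.8 FPKM in the WT livers and 10.7, 11.5 and 9.54 FPKM in the knockin livers. Knockin replicates 1 and 3 lay below every WT library, and replicate 2 lay between WT replicates 2 and 3. The log2 difference was -0.24 (SE 0.12, 95% confidence interval -0.52 to 0.04, adjusted p = 0.283), so a fall or a small rise of the mRNA are both within the error. Srebf2 (ENSMUSG00000022463) lies on chromosome 15 from 82147181 to 82205379 in the GENCODE annotation of GRCm38 and hosts Mir33 in an intron.

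Hmgcs1 encodes the cytosolic HMG-CoA synthase, which joins acetyl-CoA and acetoacetyl-CoA at the head of the mevalonate pathway. It was measured at 176, 106 and 119 FPKM in WT and 100, 69.7 and 89.3 FPKM in knockin livers. Every knockin value was below every WT value, although the highest knockin and the lowest WT library were close. The log2 difference was -0.60 (SE 0.20, 95% confidence interval -1.06 to -0.15, unadjusted p = 0.0157, adjusted p = 0.11), and the mean level was 35.3% lower. An exact two-sided permutation test on FPKM gave p = 0.1, the smallest that 3 against 3 allows. WT replicate 1 widened the gap: without it the log2 difference was -0.39, with an adjusted p of 0.241 by limma. A gene annotated on the opposite strand, Gm48342, overlaps Hmgcs1, and whether the quantification used strand is not given in the sources used here.

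Idi1 encodes the isomerase that converts isopentenyl diphosphate to dimethylallyl diphosphate. Its level was 91.5, 56.6 and 59.3 FPKM in WT and 81.3, 61.8 and 73.4 FPKM in knockin livers. The knockin libraries all lay inside the WT range, above both of the lower WT libraries. The log2 difference of 0.09 (SE 0.18, 95% confidence interval -0.33 to 0.51, adjusted p = 0.825) was smaller than its error. Without WT replicate 1 it was 0.30 (adjusted p = 0.255), and it turned to between -0.04 and -0.00 without WT replicate 2, WT replicate 3 or knockin replicate 1.

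Fdps, which makes farnesyl diphosphate, the last intermediate shared by sterols and the other isoprenoids, had the highest mean of the 7 genes in both genotypes. It was at 246, 161 and 129 FPKM in WT and 147, 115 and 161 FPKM in knockin livers. The genotypes overlapped, with WT replicate 1 well above all other libraries. The log2 difference was -0.31 (SE 0.22, 95% confidence interval -0.82 to 0.21, adjusted p = 0.467), and it was -0.05 without WT replicate 1 and -0.51 without WT replicate 3. In the files the interval of Fdps is 20.0 kb against 8.4 kb in GENCODE and takes in Rusc1, a neighbour on the same strand at 2.34 to 4.69 FPKM.

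Sqle encodes squalene epoxidase, which adds the first oxygen to squalene and is a rate-limiting step. Its level was 29.4, 15.1 and 13.5 FPKM in WT and 19.0, 16.1 and 21.5 FPKM in knockin livers. WT replicate 1 was 2.18 times WT replicate 3, and the knockin values fell between them. The log2 difference was 0.04 (SE 0.26, 95% confidence interval -0.55 to 0.63, adjusted p = 0.945), and the interval leaves room for a change of either sign. Without WT replicate 1 the difference was 0.37, with an adjusted p of 0.2 by limma.

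Cyp51 encodes lanosterol 14-alpha-demethylase, the first step after the sterol ring has closed. It was measured at 50.8, 40.8 and 35.6 FPKM in WT and 45.6, 33.9 and 39.9 FPKM in knockin livers. Both genotypes covered nearly the same range. The log2 difference of -0.08 (SE 0.15, 95% confidence interval -0.42 to 0.26, adjusted p = 0.787) turned to 0.05 without WT replicate 1, to 0.02 without knockin replicate 2, and to 0.02 and 0.06 under median-of-ratios and quantile scaling. The files give Cyp51 an interval of 176.7 kb, against 23.6 kb in GENCODE, which spans Akap9 on the other strand (2.54 to 4.41 FPKM).

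Insig1, which retains SCAP and SREBP2 in the endoplasmic reticulum and is itself a target of SREBP2, was at 188, 212 and 112 FPKM in WT and 142, 93.1 and 168 FPKM in knockin livers. It was the only one of the 7 genes whose highest library was WT replicate 2. The genotypes overlapped, and the log2 difference was -0.33 (SE 0.27, 95% confidence interval -0.95 to 0.29, adjusted p = 0.521). Without knockin replicate 2, the knockin library with the lowest Insig1, the difference was -0.09, and without WT replicate 3 it was -0.61.

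**Figure D1:**
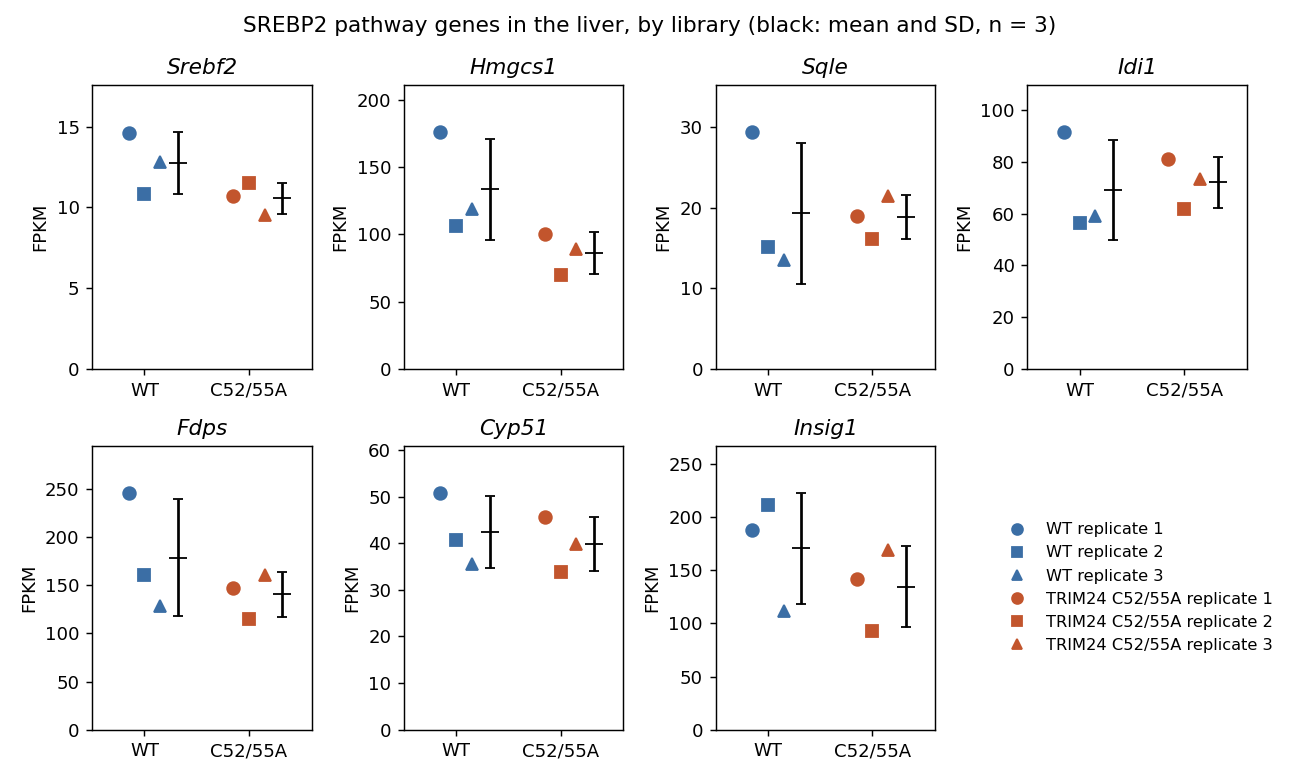
FPKM of the 7 genes (vertical axis from 0, 1 panel a gene) in the 3 WT (blue) and 3 TRIM24 C52/55A (orange) livers, with the replicate given by the symbol and the mean and SD in black. WT replicate 1 is the highest library in 6 of the 7 genes, and the genotypes are separate for Hmgcs1 alone.

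By limma, 0 of 7 genes were called at an adjusted p-value under 0.05 (all genes, 6.09% lower and 1.64% higher). At an unadjusted p under 0.05 it was 1 of 7 (Hmgcs1, lower), not above the 19.0% of all genes that were lower (4.63% were higher). The same gene was the 1 of 7 with no overlap between genotypes, a share that is not above the 22.5% of all genes tested that lay lower without overlap. The median log2 difference of the 7 genes was -0.24, beside -0.08 for all genes tested, with 5 point estimates below 0 and 2 above. Single libraries decided that median: it was -0.05 without WT replicate 1 (4 below 0 and 3 above; all genes -0.08) and -0.09 without knockin replicate 2 (4 and 3; all genes -0.10). The count of signs went the other way without WT replicate 2 or WT replicate 3, where all 7 estimates were below 0. The medians there, -0.15 and -0.23, were still no lower than -0.24. With TPM, 6 of 7 were below 0 and the median was -0.31. With median-of-ratios scaling the median was -0.15, beside 0.01 for all genes.

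The spread between WT livers was wide and rested largely on WT replicate 1. The coefficient of variation between WT livers had a median of 28.1% over the 7 genes, against 6.84% over the 6561 genes that averaged 5 FPKM or more. Among knockin livers it was 14.6%, against 9.64%. Without WT replicate 1, a choice made after seeing the data, the WT median was 9.57% over the 7 genes and 5.90% over those 6561 genes. Without knockin replicate 2, also chosen after seeing the data, the knockin median of the 7 genes was 8.19%. The median of the 6561 genes was not computed without that library, so 8.19% has no matched value. Sqle varied the most in WT (45.3%), more than 99.3% of those 6561 genes did, and Srebf2 the least (15.1%), still more than 88.2% of them. Without WT replicate 1, Sqle (8.22%) varied more than 64.2% of them and Idi1 (3.21%) more than 28.7%, while Insig1 (43.7%) still varied more than 99.3%. Among knockin livers the 7 genes were less apart from the rest: Srebf2 (9.15%) varied more than 47.2% of those genes did, and the other 6 more than 70.0% (Idi1) to 95.3% (Insig1). Insig1 was the most variable among the knockin livers (28.5%).

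WT replicate 1 was the highest of all 6 libraries in 6 of the 7 genes, and knockin replicate 2 was the lowest of the knockin libraries in 6 of 7. On the log2 FPKM scale, the 5 enzymes of the set lay on average 0.56 above their mean over the libraries in WT replicate 1 (range 0.32 to 0.74) and 0.33 below it in knockin replicate 2 (range -0.60 to -0.17). The averages of the other libraries were -0.10 and -0.19 in WT replicates 2 and 3, and 0.06 and 0.02 in knockin replicates 1 and 3. Of 14 other sterol synthesis enzymes reported here, 11 also had WT replicate 1 as the highest library, and 12 had knockin replicate 2 as the lowest knockin library. Of all genes tested, 17.8% had their highest value in WT replicate 1, and 27.5% had their lowest knockin value in knockin replicate 2. The latter library is the one with Adipoq, Plin1 and Lep, and the part of such RNA in these values was not tested.

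**Figure D2:**
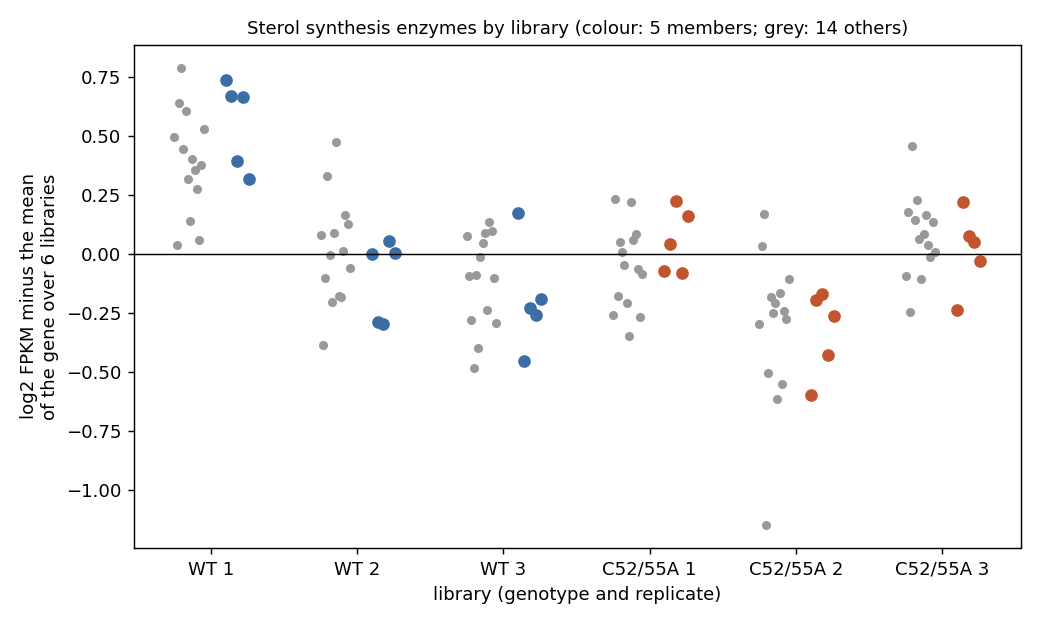
Log2 FPKM of each sterol synthesis enzyme minus its mean over the 6 libraries (vertical axis), by library (horizontal axis), with the 5 enzymes of the set in colour and 14 others in grey. All 5 lie above 0 in WT replicate 1 and below 0 in TRIM24 C52/55A replicate 2.

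**Figure D3:**
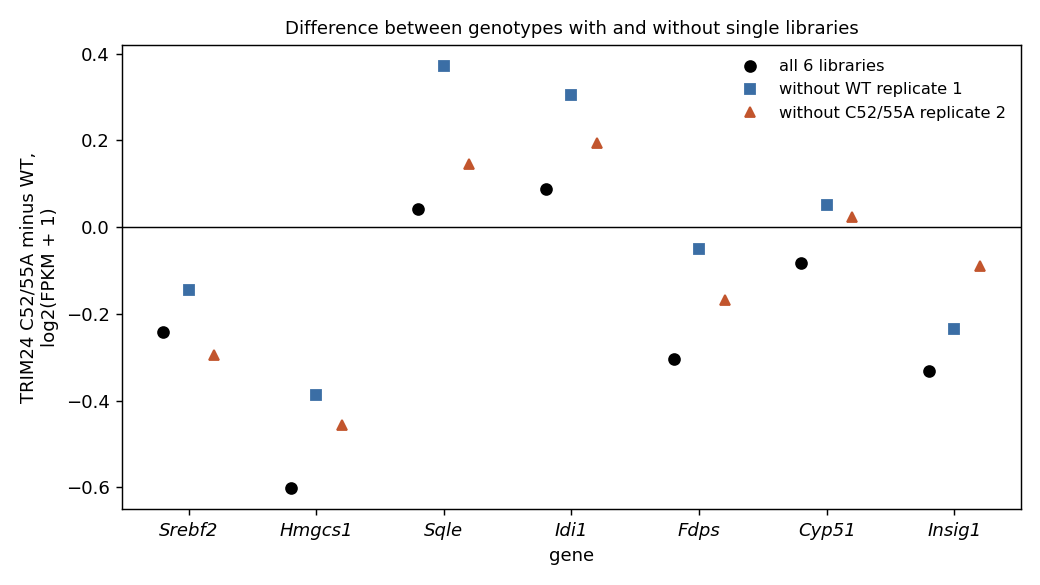
Log2(FPKM + 1) difference, TRIM24 C52/55A minus WT (vertical axis), of the 7 genes with all 6 libraries (circles), leaving out WT replicate 1 (squares) or TRIM24 C52/55A replicate 2 (triangles). Hmgcs1 stays below 0 in all 3 fits (-0.60, -0.39 and -0.46), and Cyp51 crosses 0.

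The order of the levels was the same in both genotypes: Fdps, Insig1, Hmgcs1, Idi1, Cyp51, Sqle and Srebf2, from 179 ± 60.4 to 12.7 ± 1.92 FPKM in WT and from 140.8 ± 23.3 to 10.6 ± 0.967 FPKM in knockin livers (SD, n = 3 each). Neighbours in that order were not always apart. Fdps and Insig1, and Insig1 and Hmgcs1, overlapped in both genotypes. Hmgcs1 lay above Idi1 without overlap in WT, but the ranges of these genes overlapped in the knockin livers. Sqle and Srebf2 overlapped in WT and not in knockin livers.

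Ratios within a library do not depend on how the library was scaled, and all 21 pairs of the 7 genes were compared. The pair that stood out after the values were seen was Hmgcs1 over Idi1. The ratio was 1.92, 1.86 and 2.01 in WT and 1.23, 1.13 and 1.22 in knockin livers. Its log2 value was 0.95 ± 0.05 in WT and 0.25 ± 0.07 in knockin livers (SD, n = 3 each), a difference of -0.70. Hmgcs1 over Sqle (5.98, 6.98 and 8.82 in WT, 5.26, 4.32 and 4.15 in knockin livers) and Hmgcs1 over Cyp51 (3.46, 2.59 and 3.34, then 2.20, 2.05 and 2.24) did not overlap either. The fourth pair without overlap was Sqle over Fdps, at 0.119, 0.094 and 0.104 in WT and 0.130, 0.14 and 0.134 in knockin livers. Hmgcs1 is in 3 of the 4 pairs, and its ratios with Srebf2, Fdps and Insig1 overlapped between genotypes. The 21 ratios share genes and are not independent, and the share without overlap was not computed for other pairs of genes. Exact two-sided permutation tests gave p = 0.1 for these 4 pairs, and 0.525 after Benjamini-Hochberg adjustment over the 21 pairs. With 3 against 3, ratios without overlap always give 0.1, the smallest possible, so the test adds nothing to the lack of overlap. No other test was run, because the pairs were singled out after their values were seen. The ratios are given as a description: Hmgcs1 was lower against Idi1, Sqle and Cyp51 in every knockin liver than in any WT liver.

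**Figure D4:**
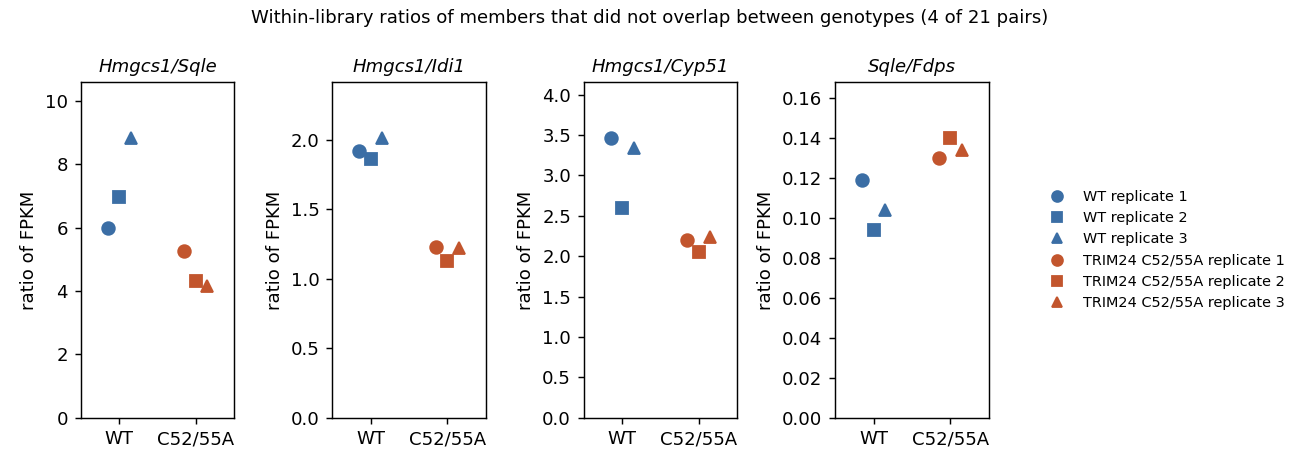
Ratio of FPKM within each library (vertical axis from 0) for the 4 of 21 pairs of genes whose ratios did not overlap between WT (blue) and TRIM24 C52/55A (orange) livers, with the replicate given by the symbol. Hmgcs1 over Idi1 lies between 1.86 and 2.01 in WT and between 1.13 and 1.23 in TRIM24 C52/55A livers.

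Of 14 other enzymes between acetyl-CoA and cholesterol that are reported here, 0 were called in any direction at an adjusted p-value under 0.05 by limma (all genes, 6.09% lower and 1.64% higher). At an unadjusted p under 0.05, 3 were lower and 1 higher, beside 19.0% and 4.63% of all genes tested. The list does not hold every enzyme of the pathway, so these counts describe its 14 members and not the pathway as a whole. Acat2, which makes acetoacetyl-CoA ahead of Hmgcs1, was at 56.9, 42.6 and 42.5 FPKM in WT and 33.7, 32.8 and 37.8 FPKM in knockin livers. Its libraries did not overlap, and the log2 difference was -0.42 (SE 0.12, 95% confidence interval -0.71 to -0.14, adjusted p = 0.0796). Mvd, the decarboxylase that yields isopentenyl diphosphate, was at 23.5, 17.1 and 9.70 FPKM in WT and 14.1, 6.10 and 18.7 FPKM in knockin livers. Mvd varied so much within each genotype (coefficients of variation of 41.1% and 49.1%) that its log2 difference of -0.39 (SE 0.40, adjusted p = 0.615) turned to 0.04 without knockin replicate 2. The median over the 14 enzymes was -0.22, and 3 of the 14 were lower without overlap, a share near the 22.5% of all genes tested. That median was -0.09 without WT replicate 1, -0.08 without knockin replicate 2, -0.12 with median-of-ratios and -0.07 with quantile scaling, and it was -0.26 and -0.31 without WT replicates 2 and 3, -0.32 without knockin replicate 3 and -0.28 with TPM.

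**Figure D5:**
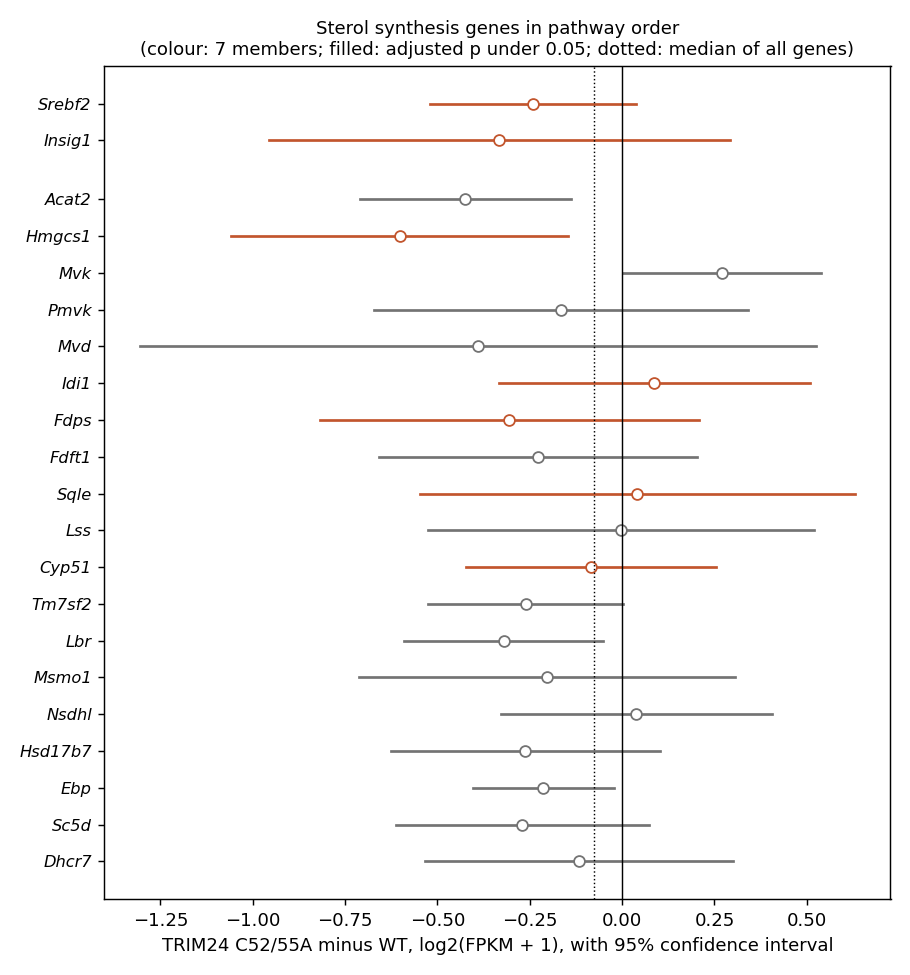
Difference of log2(FPKM + 1), TRIM24 C52/55A minus WT, with its 95% confidence interval (horizontal axis) for Srebf2, Insig1 and 19 sterol synthesis enzymes in the order of the pathway, with the 7 genes of the set in colour and a dotted line at the median of all genes. No point is filled, since none of these genes had an adjusted p under 0.05, and the intervals of 6 of the 7 genes include 0.

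Genes that control SREBP processing and sterol sensing were counted as a list of 11, of which 1 was lower and 0 were higher at an adjusted p-value under 0.05 (all genes, 6.09% lower and 1.64% higher), with a median log2 difference of -0.02 (7 below 0 and 4 above). That median turned to 0.045 with median-of-ratios and 0.03 with quantile scaling (4 below 0 and 7 above in both), and was -0.075 with TPM (8 and 3). The gene called was Rnf145, an E3 ligase of the endoplasmic reticulum that acts on sterol sensing, at 8.81, 8.22 and 9.64 FPKM in WT and 6.00, 6.90 and 6.02 FPKM in knockin livers (log2 difference -0.44, adjusted p = 0.0345). That call held under 6 of 15 alternatives and was lost without any single library other than knockin replicate 2 (log2 differences -0.49 to -0.38, adjusted p 0.0639 to 0.141). Insig2, the INSIG that does not depend on SREBP2 in the liver, was at 274, 259 and 245 FPKM in WT and 129, 222 and 153 FPKM in knockin livers. Its libraries did not overlap, yet knockin replicate 2 stood close to WT, and the adjusted p was 0.0607. Without that library Insig2 differed by -0.88 and was called (adjusted p = 0.00476). Srebf1, which encodes the SREBP of fatty acid synthesis, differed by -0.47 with an adjusted p of 0.185. Its difference was -0.69 and called without knockin replicate 2 (adjusted p = 0.0203), and -0.30 without knockin replicate 1.

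In a list of 10 genes for sterol uptake and transport that are reported here, 2 were lower and 0 higher at an adjusted p-value under 0.05 (all genes, 6.09% and 1.64%), with a median log2 difference of -0.25. Lipa, the lysosomal acid lipase that frees cholesterol from its esters, was at 145, 129 and 128 FPKM in WT and 91.9, 87.4 and 99.3 FPKM in knockin livers. Its groups did not overlap, and Lipa fell by 0.53 on the log2 scale (SE 0.08, adjusted p = 0.011). Tmem97, a sterol-regulated membrane protein, was at 50.7, 44.6 and 44.7 FPKM in WT and 32.6, 29.5 and 34.0 FPKM in knockin livers, again without overlap, and fell by 0.53 (SE 0.09, adjusted p = 0.0133). The calls of Lipa and Tmem97 held under 13 and 12 of the 15 alternatives. Without WT replicate 1, or without knockin replicate 1, the list had 0 calls by limma; Lipa then differed by -0.47 or -0.52 (adjusted p 0.0517 or 0.0502) and Tmem97 by -0.47 or -0.54 (adjusted p 0.0588 or 0.0505).

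Of 9 genes of the non-sterol branches of the mevalonate pathway, 0 passed the adjusted or the unadjusted threshold by limma in any direction. Of all genes tested, 6.09% were lower and 1.64% higher at the adjusted threshold, and 19.0% and 4.63% at the unadjusted one. The 9 genes had a median log2 difference of -0.15, and 3 were lower without overlap, beside 22.5% of all genes. That median was -0.07 with median-of-ratios scaling, -0.05 with quantile scaling and -0.22 with TPM. The largest differences were those of Fntb, a farnesyltransferase subunit (-0.26, adjusted p = 0.227), and Nus1, a subunit of the dolichol-making enzyme (-0.17, adjusted p = 0.29), the latter level with Fnta at this precision. Of 9 genes for LXR and sterol efflux or esterification, 1 was lower and 0 were higher, beside 6.09% and 1.64% of all genes. Nr1h2, which encodes LXR-beta, fell by 0.48 (adjusted p = 0.0342, called under 7 of 15 alternatives and lost without any single library other than knockin replicate 2, at -0.53 to -0.40), and Abca1, the efflux pump that LXR raises, differed by 0.29 with an adjusted p of 0.128.

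Cholesterol synthesis in the liver follows the clock and feeding, and the time of day of sampling is not given in the sources used here. Of 13 clock genes tested, 2 were lower and 0 higher, beside 6.09% and 1.64% of all genes; the count by limma was 0 without WT replicate 2, WT replicate 3 or knockin replicate 1. Per1 was at 5.39, 11.0 and 8.31 FPKM in WT and 3.10, 4.09 and 2.91 FPKM in knockin livers (log2 difference -1.04, adjusted p = 0.0268). Ciart was low, at 1.05, 1.01 and 1.39 FPKM in WT and 0.179, 0.186 and 0.641 FPKM in knockin livers. Its difference was -0.70 (adjusted p = 0.0331), and -1.67 on the scale of log2(FPKM + 0.1). The call of Per1 was lost without WT replicate 2 or 3 or knockin replicate 1 or 3 (-1.01 to -0.83), and that of Ciart without any single library other than knockin replicate 3 (-0.75 to -0.62). Dbp, a clock output gene, spread from 0.653 to 6.18 FPKM within the knockin livers and from 3.44 to 7.04 FPKM within WT. The part of clock phase in the values of the 7 genes was not tested.

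Markers of the other cells of the liver were summed in each library as a measure beside these results. Kupffer cell markers (7 genes) summed to 110.6 to 141.8 FPKM in WT and 96.5 to 132 FPKM in knockin livers, and 0 of 7 were called by limma, with 1 lower at an unadjusted p under 0.05. The point estimates of all 7 Kupffer markers were below 0, with a median log2 difference of -0.24, the same to 2 decimals as that of the 7 pathway genes. Endothelial markers (6 genes, 1 called lower) summed to 107.1 to 117.3 and 101.8 to 107.2 FPKM, stellate cell markers (6 genes, 0 called, 2 lower and 1 higher at an unadjusted p under 0.05) to 114.2 to 126 and 106.4 to 139.5 FPKM, and bile duct markers (4 genes tested, 0 called, 2 lower and 1 higher at an unadjusted p under 0.05) to 28.5 to 53.8 and 21.8 to 33.9 FPKM. Adipocyte markers (7 genes tested, 1 called lower) summed to 35.3 to 46.9 FPKM in WT and to 9.40 to 77.2 FPKM in knockin livers, the highest being replicate 2. Of 6 hepatocyte markers, 1 was called lower and 1 higher, and 1 was lower and 3 were higher at an unadjusted p under 0.05. Over all genes, 6.09% were called lower and 1.64% higher, and 19.0% and 4.63% passed the unadjusted threshold. In bulk liver, fewer cells of a type and less RNA per cell cannot be told apart, and the part of these markers in the differences above was not tested.

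The genes whose profile over the 6 libraries was most like the mean profile of the 7 genes were ranked among 6554 other genes that averaged 5 FPKM or more, by the root mean square difference of scaled log2(FPKM + 1). The nearest were Gdf15 (0.21), Rnf121 (0.22), Tbc1d13 (0.24), Tspyl1 (0.26) and Pold2 (0.31). Gdf15, a stress-induced hormone, was at 16.0, 10.2 and 10.3 FPKM in WT and 10.7, 8.55 and 9.93 FPKM in knockin livers, with WT replicate 1 the highest library and knockin replicate 2 the lowest. The 7 genes themselves lay between 0.21 (Fdps) and 0.88 (Srebf2) from their mean profile. Of 13 other sterol enzymes in this ranking, 11 were within the first 222 places: Fdft1 ranked 9, Dhcr7 ranked 11 and Lss ranked 29, while Ebp ranked 1116 and Mvk ranked 2761. The measure rests on 6 libraries of similar depth, and the likeness is a description.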

How the data were processed

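Liver RNA of 3 WT and 3 TRIM24 C52/55A mice was measured by RNA-Seq; the deposited values are FPKM, with a separate table for each mouse. The labels' processing notes name bcl2fastq, Salmon 0.14.0, DESeq2 1.30.0 and the build GRCm38, without saying which step each served. Libraries were grouped by the genotype of their labels. No pair of libraries held identical values, and nothing says how RNA was handled between mice, so p-values measure the spread between these samples.

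Genes averaging 0.5 FPKM or more were tested as log2(FPKM + 1), a scale that understates the change of low genes, with limma 3.58.1 in R 4.3.3 (lmFit, eBayes with trend; Benjamini-Hochberg adjustment); the script was tested on simulated data. Exact permutation tests used scipy 1.17.1, and figures matplotlib 3.10.9. Of the 21528 gene IDs, 21454 were found in GENCODE M21 (GRCm38). The 15 alternatives were pseudocount 0.1, no filter, a minimum mean of 1 FPKM, TPM, median-of-ratios and quantile scaling, limma without the trend or with robust eBayes, the replicate block, and each of 6 libraries left out.

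The 7 genes and the lists were chosen with earlier results of these data known. Some genes of the pathway are not reported here; they were taken out of the lists after values had been seen, and every list count leaves them out, while tests and adjustment still ran over all genes. Named genes are all 7; from each of 6 pathway and clock lists those with an adjusted p under 0.05 (at most 8) and, where fewer than 2 passed, the 2 with the largest difference; and the 5 with the most alike profile. Dbp, the ranked enzymes Fdft1, Dhcr7, Lss, Ebp and Mvk, and the adipocyte markers Fabp4, Lpl, Cfd and Cidec were named after their values were seen; Adipoq, Plin1 and Lep are defining markers highest in 1 library. Cell type marker lists are otherwise given by counts and ranges. Promoters are from RefSeq (GRCm38.p6).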

Additional observations from a re-analysis of the deposited data

How the results depend on the processing

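The count of the 7 genes with an adjusted p under 0.05 was 0 in the main analysis and 0 in 14 of the 15 alternatives. With a replicate block it was 1, Hmgcs1, at an unchanged log2 difference of -0.60 and an adjusted p of 0.0285 (range over the alternatives 0.0285 to 0.274). Deviations of same-numbered libraries correlated at -0.12, -0.10 and 0.00 over the genes tested, beside -0.05 to 0.14 for libraries of unlike number. The labels do not say whether a shared number stands for shared handling, and these correlations cannot settle it. The block lowered the calls over all genes from 744 to 422 lower and from 200 to 156 higher. The count of the 14 other enzymes was 0 and rose to 1, Acat2, with TPM. Among the 7 genes and those named from the lists by rule, the signs of Sqle, Idi1, Cyp51 and Mvd changed, in no case with a call. Others of the 14 enzymes changed sign too. In the main analysis 12 lay below 0 and 2 above, against 9 and 5 without WT replicate 1, where Mvd stayed below 0. With quantile scaling it was 10 and 4, and with TPM 13 and 1. Sqle (0.04) was at -0.018 with TPM and ranged from -0.163 to 0.372 with 1 library left out, below 0 without WT replicate 2, WT replicate 3 or knockin replicate 3. Idi1 (0.09) ranged from -0.038 to 0.304 with 1 library left out, below 0 without WT replicate 2, WT replicate 3 or knockin replicate 1. Cyp51 (-0.08) was at 0.016 with median-of-ratios scaling and 0.06 with quantile normalization, and ranged from -0.199 to 0.051 with 1 library left out, above 0 without WT replicate 1 or knockin replicate 2. Mvd (-0.39) ranged from -0.715 to 0.035 with 1 library left out. Srebf2 (-0.35 to -0.14), Hmgcs1 (-0.75 to -0.39), Fdps (-0.51 to -0.05) and Insig1 (-0.61 to -0.09) kept their sign in all 15. The median of all genes was -0.08, -0.13 with TPM, and 0.01 with median-of-ratios or quantile scaling. The median coefficient of variation of the 7 genes with 1 library left out, an alternative added after seeing the data, ranged from 9.57% to 30.25% in WT (28.1%) and from 8.19% to 19.26% in knockin livers (14.6%). Over the 15 alternatives, 202 to 1295 genes were called lower and 88 to 255 higher, against 744 and 200. Calls numbered 0 to 4 of the sterol transport list (2), 0 to 3 of the SREBP control list (1), 0 to 1 of the LXR list (1) and 0 to 4 of the clock list (2). The cause of these changes was not tested. The precision is limited by 3 mice a genotype, and FPKM without counts give no interval for counting error.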
